A study of Mus musculus with 6 samples.

Results

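The genes described here are 10 genes used as markers of striatal projection neurons and of their dopamine signalling: Drd1, Drd2, Penk, Adora2a, Ppp1r1b, Gnal, Rasd2, Slc35d3, Syndig1l and Ido1. They were chosen for their levels on these same arrays, so their values are given as a description and with no test. A gene was read from the probe sets that carry exactly 1 gene symbol in the array annotation, and 8 of the 10 genes could be read in this way, out of 22180 genes in all. Adora2a, the adenosine receptor of indirect pathway neurons, is not among the symbols listed, and Ppp1r1b, which encodes DARPP-32, is listed only on a probe set that carries several symbols. Neither is reported here. Each of the other 8 genes had 1 probe set with its symbol alone.

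The transcriptome of the parvafox nucleus, a small cell group of the ventrolateral hypothalamus, was measured on Affymetrix Mouse Gene 2.0 ST arrays and set against that of cerebral cortex (piriform and entorhinal) and hippocampus (the CA2 and CA3 areas). The tissue was cut by laser from frozen sections of adult C57BL/6 mice, and its RNA was amplified before hybridisation. The 6 arrays hold 1 sample of each of the 3 regions from each of 2 mice, mouse 355 and mouse 511, so each region has 2 samples. The nucleus was found on neighbouring sections with a lectin, the comparison regions were an arbitrary choice, and the 2 mice were those with the best preserved RNA. The strain is not among the labels of the nucleus sample of mouse 511.

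Striatal projection neurons are GABAergic cells of the basal ganglia that receive dopamine from the midbrain. Those of the direct pathway carry the D1 receptor, which raises cyclic AMP through the G protein Golf, and those of the indirect pathway carry the D2 receptor, which lowers it, together with the adenosine receptor encoded by Adora2a and the opioid peptide enkephalin. These cells also fill the olfactory tubercle and the nucleus accumbens, which lie in the ventral forebrain, and some of their genes are active in cortex, hippocampus and hypothalamus as well.

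Levels are log2 RMA signals, a scale on which a difference of 1 is a 2-fold difference. The 6 array medians lay between 3.54 and 3.68 and the 75th percentiles between 5.56 and 5.64, so a level near 3.6 is that of a probe set in the middle of its array. The 2 arrays of a region correlated across all probe sets with r = 0.954 for the nucleus, 0.967 for the cortex and 0.972 for the hippocampus. Probe sets differ in their response, so levels are compared between arrays and not between genes. Where regional means are set beside the SD of the 2 mice, this describes the values and is no test. It does not use the pairing of the regions within a mouse.

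The start regions of 3 of the genes are shown because these genes differed most clearly between the 2 cortex samples and have an entry in the RefSeq promoter sequences. Of the 8 genes, 4 (Drd1, Drd2, Rasd2 and Slc35d3) matched an entry. Each line gives the 250 bases before the annotated transcript start, 5′ to 3′ on the strand of the gene, on GRCm38.p6. Drd1 is at chr13:54055659-54055908 on the minus strand, Drd2 at chr9:49340153-49340402 on the plus strand and Slc35d3 at chr10:19851460-19851709 on the minus strand. Capitals mark a GC box (GGGCGG or its complement CCGCCC) in Drd2 and Slc35d3, and the short cyclic AMP element TGACG (complement CGTCA) at the second run of capitals in Slc35d3.
Drd1: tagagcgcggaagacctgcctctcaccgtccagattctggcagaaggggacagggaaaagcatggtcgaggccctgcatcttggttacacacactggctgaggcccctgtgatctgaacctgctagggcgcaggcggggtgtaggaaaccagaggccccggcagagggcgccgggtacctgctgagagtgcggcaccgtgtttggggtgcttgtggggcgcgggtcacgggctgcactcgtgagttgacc
Drd2: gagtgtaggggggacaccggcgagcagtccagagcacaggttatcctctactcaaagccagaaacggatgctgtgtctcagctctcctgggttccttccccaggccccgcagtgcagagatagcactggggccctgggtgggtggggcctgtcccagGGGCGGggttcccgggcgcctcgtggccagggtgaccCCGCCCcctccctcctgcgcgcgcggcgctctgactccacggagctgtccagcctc
Slc35d3: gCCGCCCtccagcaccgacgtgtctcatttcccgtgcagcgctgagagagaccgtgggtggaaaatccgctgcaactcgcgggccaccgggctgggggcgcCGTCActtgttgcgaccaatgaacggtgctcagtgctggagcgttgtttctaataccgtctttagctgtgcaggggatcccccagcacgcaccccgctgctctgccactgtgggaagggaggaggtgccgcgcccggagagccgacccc
The share of G and C was 64.0% in Drd1, 68.8% in Drd2 and 65.6% in Slc35d3, against a median of 52.4% over the 32851 promoter entries. The 2 GC boxes of Drd2 begin 93 and 56 bases before the start, and the GC box and the short cyclic AMP element of Slc35d3 begin 249 and 149 bases before it. A GC box was found in 32.7% of all the promoter entries and the short cyclic AMP element in 17.8%, both strands counted. The TATA box TATAAA (12.4% of entries), the full cyclic AMP element TGACGTCA (1.55%), the nuclear receptor motif AGGTCA (4607 entries) and the AP-1 motif TGAGTCA (4.46%) were searched in the same way and do not occur in these 3 windows. The full cyclic AMP element contains the short element. A match is a description and not a measured binding site. Drd1 has another annotated start, whose 250 bases hold 1 GC box, and the window of Rasd2, with 75.2% G and C, holds none of the motifs.

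All 8 genes had their highest level on the same array, the cortex sample of mouse 511, and 5 of the 8 (Drd1, Drd2, Penk, Slc35d3 and Syndig1l) were at least 2-fold higher there than on each of the other 5 arrays. That array was the highest for 14.9% of all genes, and 82 genes, 0.37% of all, stood at least 2-fold above every other array on it. The genes were chosen on these arrays, so nothing is read from the excess over this background. The mean level of the 8 genes was 7.57 on the cortex array of mouse 511 and 5.34 on that of mouse 355. It was 5.54 and 5.36 on the nucleus arrays of mouse 355 and mouse 511, and 4.96 and 5.0 on their hippocampus arrays.

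**Figure D1:**
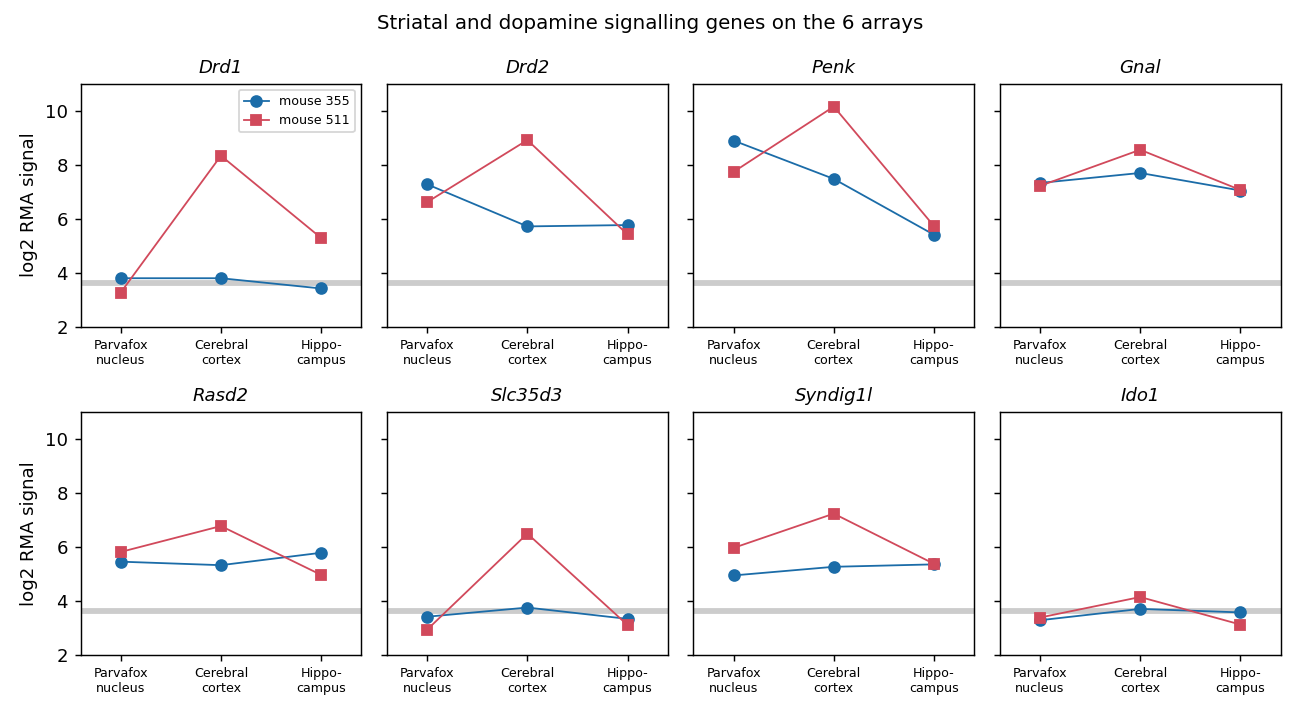
Each panel plots the log2 RMA signal of 1 gene in the parvafox nucleus, cerebral cortex and hippocampus, with 1 point per array, blue circles for mouse 355 and red squares for mouse 511 joined within a mouse, and a grey band from the lowest to the highest array median (3.54 to 3.68). In all 8 panels the red square of the cortex is the highest point, from 10.15 for Penk to 4.14 for Ido1.

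Drd1 encodes the D1 dopamine receptor of direct pathway neurons. Its level was 3.79 in the nucleus of mouse 355 and 3.26 in that of mouse 511, 3.79 and 8.33 in the cortex of the same mice, and 3.41 and 5.28 in the hippocampus. The cortex and the hippocampus of mouse 511 were thus high, and the other 4 samples lay near the middle of their arrays. Between the 2 cortex samples Drd1 differed 23.4-fold, the 2nd largest difference upward in mouse 511 among the 22180 genes, and between the 2 hippocampus samples 3.67-fold. By region the level was 6.06 ± 3.22 in the cortex, 4.35 ± 1.33 in the hippocampus and 3.53 ± 0.38 in the nucleus (mean ± SD, n = 2 mice), and no neighbours in this order were further apart than their spread. The log2 difference between nucleus and cortex was -5.08 in mouse 511 and 0.01 in mouse 355. The level in the nucleus of mouse 511 was below the median of its array, and that in the cortex of mouse 355 was only just above its own, so the size of these differences rests on dim signals and is not firm.

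Drd2 encodes the D2 receptor, found on indirect pathway neurons and, as an autoreceptor, on dopamine neurons. Its level was 7.27 and 6.61 in the nucleus samples of mouse 355 and mouse 511, 5.71 and 8.91 in their cortex samples, and 5.76 and 5.41 in their hippocampus samples. Both nucleus samples were above both hippocampus samples, but the 2 cortex samples lay on either side of the nucleus. How many of all genes separate nucleus and hippocampus in this way was not counted. The nucleus was 2.83-fold above the hippocampus in mouse 355 and 2.29-fold in mouse 511. Against the cortex it stood 2.95-fold higher in mouse 355, but 4.95-fold lower in mouse 511, and the 2 cortex samples differed 9.24-fold, the 8th largest upward difference of all genes. The regional levels were 7.31 ± 2.27 in the cortex, 6.94 ± 0.47 in the nucleus and 5.59 ± 0.25 in the hippocampus (mean ± SD, n = 2), so that only the step from nucleus to hippocampus was larger than the spread of both neighbours.

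None of the other dopamine receptors was at least 2-fold higher in the cortex of mouse 511 than in that of mouse 355. Of all probe sets 3.33% were higher and 2.89% lower by that much, so counts among so few genes say little. Drd3, a receptor of the islands of Calleja in the ventral striatum, was highest on that array too, at 3.93, but lay between 3.10 and 3.84 on the others. It is 1 of 3 markers read for the islands of Calleja and olfactory tubercle, and the others ran in opposite directions. Rspo2 was 5.34 and 7.48 in the cortex samples of mouse 355 and mouse 511, but highest in the hippocampus of mouse 511, at 8.35. Calb2 was 7.11 and 4.81 in the cortex samples. Drd4 lay between 2.68 and 3.28. Drd5, the second receptor of the D1 type, was 5.49 and 4.61 in the nucleus samples of mouse 355 and mouse 511, 5.76 and 4.70 in their cortex samples, and 5.89 and 5.60 in their hippocampus samples. It was the only receptor of the 5 that was at least 2-fold lower in the cortex of mouse 511, with a log2 difference of -1.06. Its 2nd probe set, at 4.02 and 4.14 in the 2 cortex samples, did not show this difference.

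Gnal encodes the alpha subunit of Golf, the G protein that couples the D1 receptor and the adenosine receptor of indirect pathway neurons to adenylyl cyclase in the striatum. Its level was 7.32 and 7.21 in the nucleus samples of mouse 355 and mouse 511, 7.69 and 8.55 in their cortex samples, and 7.04 and 7.06 in their hippocampus samples. Both cortex samples were above the other 4, and the signal was above the 75th percentile on all 6 arrays. The nucleus was above the hippocampus by only 0.28 in mouse 355 and 0.16 in mouse 511 on the log2 scale. The regions did not overlap, but how many of all genes show this with 2 samples per region was not counted. In the order 8.12 ± 0.60 in the cortex, 7.27 ± 0.08 in the nucleus and 7.05 ± 0.01 in the hippocampus (mean ± SD, n = 2), each neighbour differed by more than the larger of the 2 SDs. The 2 cortex samples differed only 1.81-fold, which ranked 706th among the upward differences. A further probe set that lists Gnal with other symbols was not used here.

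Rasd2 encodes Rhes, a small GTP-binding protein enriched in striatum that acts on cyclic AMP signalling below the dopamine receptors. Its level was 5.45 and 5.81 in the nucleus samples of mouse 355 and mouse 511, 5.32 and 6.77 in their cortex samples, and 5.78 and 4.96 in their hippocampus samples. The 3 regions overlapped, because the cortex sample of mouse 355 lay below both nucleus samples and below the hippocampus sample of the same mouse. The cortex samples differed 2.73-fold, and within mouse 511 the cortex was 3.52-fold above the hippocampus. The regional levels of 6.05 ± 1.03, 5.63 ± 0.26 and 5.37 ± 0.58 in cortex, nucleus and hippocampus (mean ± SD, n = 2) differed by less than the spread between the mice.

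Penk encodes proenkephalin, the precursor of the enkephalins that indirect pathway neurons release and that many hypothalamic neurons also make. Its level was 8.89 and 7.73 in the nucleus samples of mouse 355 and mouse 511, 7.47 and 10.15 in their cortex samples, and 5.40 and 5.72 in their hippocampus samples. The 2 hippocampus samples were the lowest of the 6, the nucleus samples were well above them, and the cortex samples lay on either side of the nucleus. The share of all genes with such a separation was not counted. The nucleus was 11.2-fold above the hippocampus in mouse 355 and 4.01-fold in mouse 511, and the cortex was 4.19-fold and 21.6-fold above it. Set against the cortex, the nucleus level was 2.68-fold higher in mouse 355 but 5.37-fold lower in mouse 511. Levels of 8.81 ± 1.90 in the cortex and 8.31 ± 0.82 in the nucleus (mean ± SD, n = 2) could not be ordered, and both exceeded the 5.56 ± 0.23 of the hippocampus by more than their spread.

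Slc35d3 belongs to a family of nucleotide sugar transporters and is known in mice for its part in the trafficking of the D1 receptor. Its level was 3.41 and 2.93 in the nucleus samples of mouse 355 and mouse 511, 3.75 and 6.49 in their cortex samples, and 3.33 and 3.10 in their hippocampus samples. The cortex of mouse 511 stood alone, 2.74 above the next array on the log2 scale, and both nucleus samples and both hippocampus samples were below the medians of their arrays. The cortex samples differed 6.68-fold, the 17th largest upward difference, and in mouse 511 the log2 difference between nucleus and cortex was -3.56, against a nucleus signal too dim for a firm fold. The means of 5.12 ± 1.94 in the cortex, 3.22 ± 0.16 in the hippocampus and 3.17 ± 0.34 in the nucleus (mean ± SD, n = 2) were not ordered beyond the spread of the cortex samples.

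Syndig1l encodes a transmembrane protein related to the synapse protein SynDIG1. Its level was 4.94 and 5.96 in the nucleus samples of mouse 355 and mouse 511, 5.26 and 7.23 in their cortex samples, and 5.35 and 5.37 in their hippocampus samples. The cortex of mouse 511 was the highest and the nucleus of mouse 355 the lowest, with the regions overlapping between them. The cortex samples differed 3.94-fold and the nucleus samples 2.03-fold in the same direction. The regional means were 6.24 ± 1.40 in the cortex, 5.45 ± 0.72 in the nucleus and 5.36 ± 0.01 in the hippocampus (mean ± SD, n = 2), within the spread of the cortex.

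Ido1 encodes indoleamine 2,3-dioxygenase, which opens the ring of tryptophan as the first step of the kynurenine pathway. Its level was 3.28 and 3.38 in the nucleus samples of mouse 355 and mouse 511, 3.70 and 4.14 in their cortex samples, and 3.57 and 3.12 in their hippocampus samples. Only the cortex samples were above the medians of their arrays, and no sample reached the 75th percentile. The cortex samples differed 1.35-fold, which ranked 2619th among the upward differences, so that Ido1 shared the highest array with the other 7 genes at a far smaller size.

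Between the 2 cortex samples, 6 of the 8 genes were at least 2-fold higher in mouse 511 and none was at least 2-fold lower, with a median log2 difference of 2.33. Among all probe sets 3.33% were at least 2-fold higher and 2.89% lower, and the median difference was -0.03. Gnal and Ido1 were the exceptions. In the nucleus the same comparison of the mice gave 1 gene higher (Syndig1l; 4.96% of all probe sets were) and 1 lower (Penk; 3.65%), with a median of -0.29 against 0.0 for all probe sets. In the hippocampus 1 was higher (Drd1; 2.74%) and 0 were lower (2.3%), with a median of -0.11 against -0.05. With 1 sample per region and mouse these differences between mice have no replicate. In tissue of mixed cells, fewer cells of a type and less RNA of a gene per cell cannot be told apart, and a difference between the mice cannot be told apart from a difference in what was cut from each brain.

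**Figure D2:**
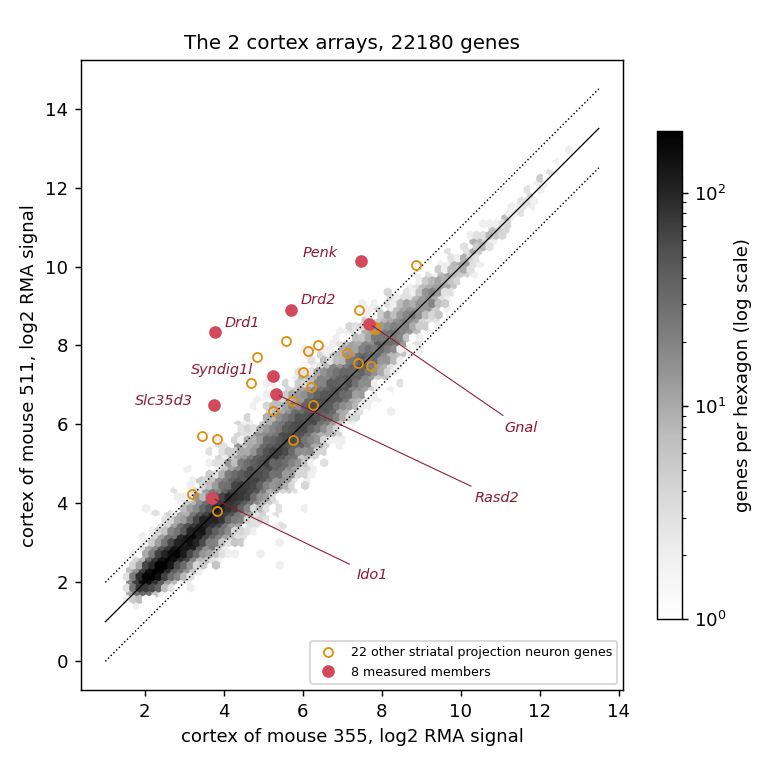
The log2 RMA signal of 22180 genes in the cortex of mouse 355 (horizontal axis) and of mouse 511 (vertical axis) is shown as hexagons shaded by the number of genes on a log scale, with the line of equality and dotted lines at 2-fold in either direction. The 8 genes (red, named) and the 22 other striatal projection neuron genes (open circles) lie mostly above the line, with Drd1 23.4-fold and Drd2 9.24-fold higher in mouse 511.

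The comparison of the nucleus with the cortex had different outcomes in the 2 mice. In mouse 355, 2 of the 8 genes (Drd2 and Penk) were at least 2-fold higher in the nucleus (2.94% of all probe sets) and 0 were lower (3.13%), with a median of -0.16 against 0.01 over all probe sets. In mouse 511, 0 were higher (5.67%) and 6 were lower (4.93%), with a median of -1.82 against 0.04. Rasd2 and Ido1 fell short of 2-fold, with log2 differences of -0.96 and -0.75. Drd2 and Penk were among 22 genes, 0.0992% of all, that were at least 2-fold higher in the nucleus of mouse 355 and at least 2-fold lower in that of mouse 511.

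The comparison of the nucleus with the hippocampus does not use the cortex arrays. In it Drd2 and Penk were at least 2-fold higher in the nucleus of both mice. Within each mouse this was 2 of 8 genes, against 3.84% of all probe sets in mouse 355 and 5.8% in mouse 511. The share of all probe sets that passed in both mice was not counted. None was at least 2-fold lower in mouse 355 (3.78% of all) and only Drd1 was in mouse 511 (5.18%), with a log2 difference of -2.03. The median differences of the 8 genes were 0.18 and 0.43, against 0.01 and 0.07 over all probe sets. For the other 5 genes the differences between nucleus and hippocampus lay between -0.41 and 0.85 on the log2 scale, and for all of them but Gnal they had opposite signs in the 2 mice.

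The comparison of the cortex with the hippocampus shares its cortex arrays with that of the nucleus and the cortex. In mouse 355 only Penk was at least 2-fold higher in the cortex (2.87% of all probe sets) and 0 genes were lower (2.74%), with a median of 0.26 against 0.0. In mouse 511 all 8 genes were at least 2-fold higher in the cortex (2.94%) and 0 were lower (2.99%), with a median of 2.46 against 0.03. After cyclic loess, or with each array centred on its median, 7 of the 8 passed this threshold. The smallest of these differences was 2.03-fold for Ido1 and the largest 21.6-fold for Penk.

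A further list of striatal projection neuron genes had 22 genes with a probe set that carries their symbol alone. Between the cortex samples 12 of the 22 were at least 2-fold higher in mouse 511 and 0 were lower (3.33% and 2.89% of all probe sets), with a median of 1.08, and 19 had a positive difference. In the nucleus 0 were at least 2-fold higher and 2 lower in mouse 511, with a median of 0.03, and in the hippocampus 0 and 1, with a median of 0.16. The cortex array of mouse 511 held the highest level of 16 of the 22, and 7 of them were at least 2-fold above every other array (0.37% of all genes): Rgs9, Strip2, Rarb, Rxrg, Pde10a, Pde7b and Actn2. Of these, Rgs9, Pde10a and Actn2 were named after their values were seen. The mean level of the list was 5.97 and 7.1 in the cortex samples, and between 5.5 and 5.92 on the other 4 arrays. This list was also drawn up with results of these data known.

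**Figure D3:**
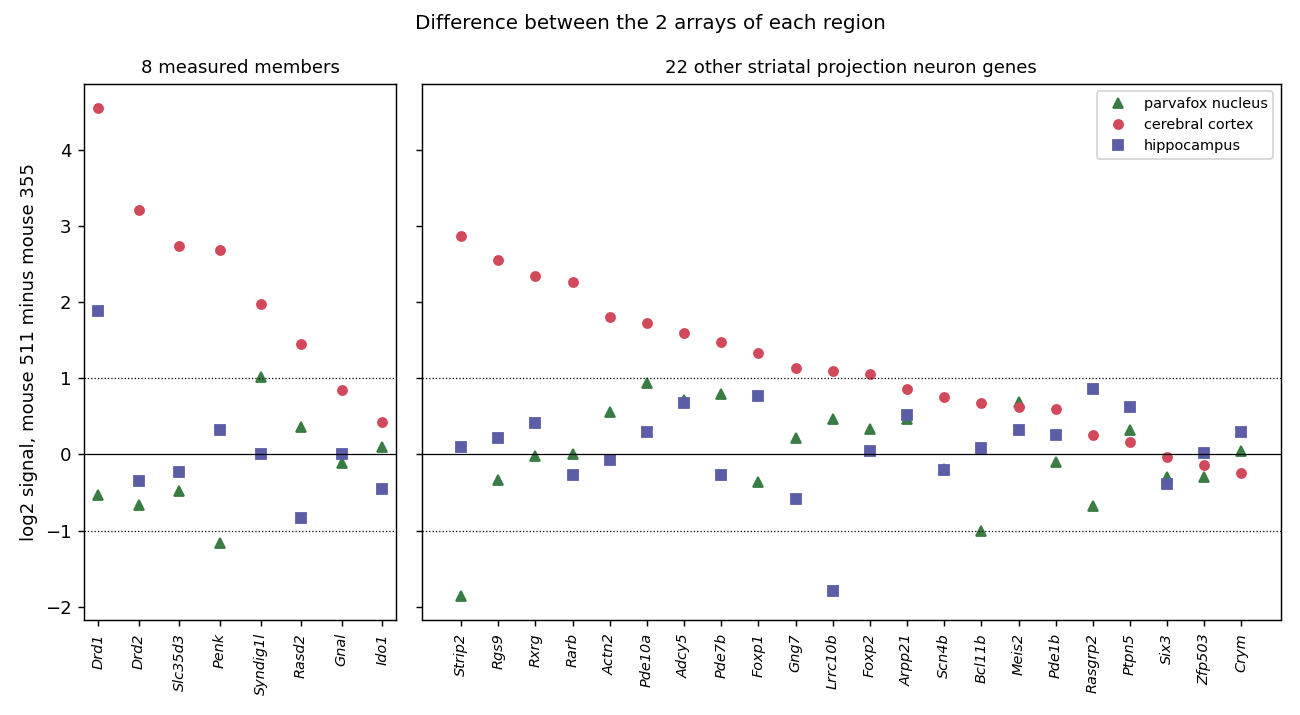
The vertical axis gives the log2 difference between the sample of mouse 511 and that of mouse 355 within each region, for the 8 genes (left) and the 22 other striatal projection neuron genes (right), with green triangles for the nucleus, red circles for the cortex, blue squares for the hippocampus and dotted lines at 2-fold. The red circles lie above the upper line for 6 of 8 and 12 of 22 genes, and the triangles and squares mostly lie between the lines.

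The members of that list with the widest range on the arrays (Crym, Strip2, Meis2, Bcl11b, Scn4b and Pde7b), and others named above, did not all follow the same course. Strip2 was 6.26 and 4.40 in the nucleus samples of mouse 355 and mouse 511, 4.83 and 7.70 in their cortex samples, and 4.08 and 4.18 in their hippocampus samples, so the cortex of mouse 511 and the nucleus of mouse 355 were both high. Rgs9, which encodes a regulator that ends G protein signals in striatal neurons, was 8.12 in the cortex of mouse 511 and between 5.58 and 6.17 elsewhere. Pde7b, a cyclic AMP phosphodiesterase, was 8.90 there and between 6.33 and 7.42 elsewhere. Rarb and Rxrg encode nuclear receptors for retinoids with a role in striatal development. Rarb was 5.71 in the cortex of mouse 511 and between 3.40 and 3.70 on the other arrays, and Rxrg was 7.05 there and between 4.70 and 5.22 elsewhere. Crym, Bcl11b and Meis2 are also used by cortical, hippocampal or amygdalar neurons. Crym was 7.72 and 7.48 in the cortex samples and 8.44 and 8.73 in those of the hippocampus, against 4.50 and 4.55 in the nucleus, with no excess in the cortex of mouse 511. Bcl11b was 7.11 and 7.80 in the cortex samples and 7.75 and 7.82 in those of the hippocampus, against 5.82 and 4.82 in the nucleus. Meis2 was 7.84 and 8.47 in the cortex, 6.74 and 7.06 in the hippocampus and 5.37 and 6.06 in the nucleus. For Crym and Meis2 the 2 mice ran alike, while Bcl11b was at least 2-fold lower in the nucleus of mouse 511 than in that of mouse 355, with a log2 difference of -1.01. Scn4b, a sodium channel subunit, was 5.90 and 5.71 in the nucleus samples, 6.20 and 6.96 in the cortex samples and 4.22 and 4.01 in those of the hippocampus, and was low in the hippocampus of both mice.

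In limma across all 41345 probe sets, with the mouse as a block, 0 of the 22 genes had an adjusted p under 0.05 in any of the 3 comparisons of regions, as 0, 1 and 0 probe sets of all had for nucleus against cortex, nucleus against hippocampus and cortex against hippocampus (0.0%, 0.00242% and 0.0%). At an unadjusted p under 0.05, 10 of the 22 were lower in the nucleus than in the cortex samples and 0 higher (4.12% and 3.77% of all probe sets), 5 were lower and 2 higher in the nucleus than in the hippocampus (4.76% and 4.79%), and 7 were higher and 1 lower in the cortex than in the hippocampus (2.38% and 2.36%). Without the cortex array of mouse 511 these counts became 6 lower in the nucleus than in the remaining cortex sample, and 2 higher and 0 lower in the cortex than in the hippocampus. Without the cortex array of mouse 355 they became 14 lower in the nucleus and 11 higher in the cortex. In both of these fits the lone cortex sample was assumed to vary like the other regions, and since the list was drawn up with results known, all these counts describe it and are no test of it.

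Genes that set the direct pathway apart gave a mixed picture. Of 7 such genes 2, Tac1 and Pdyn, were at least 2-fold higher in the cortex of mouse 511 than in that of mouse 355, and 0 were lower. The shares of all probe sets were 3.33% and 2.89%, and the median of the 7 genes was 0.55. Tac1, the precursor of substance P, was 8.03 and 9.17 in the nucleus samples of mouse 355 and mouse 511, 6.44 and 8.70 in their cortex samples, and 5.90 and 6.45 in their hippocampus samples, and was highest in the nucleus of mouse 511. Pdyn, the precursor of dynorphin, was 4.40 and 4.81 in the nucleus samples of mouse 355 and mouse 511, 5.06 and 7.22 in their cortex samples, and 5.26 and 4.99 in their hippocampus samples, with the cortex of mouse 511 alone high. Of 5 indirect pathway genes 1 was at least 2-fold higher in the cortex of mouse 511 (3.33% of all probe sets). This was Gpr52, a receptor that raises cyclic AMP, at 7.10 in that sample and between 3.89 and 5.29 on the other arrays. Gpr6, another receptor of these neurons, was 5.71 and 6.26 in the cortex samples and between 4.35 and 5.04 elsewhere.

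Genes of the signalling steps around the receptors gave counts that differed between lists. Among all probe sets 3.33% were at least 2-fold higher and 2.89% lower in the cortex of mouse 511 than in that of mouse 355. Of 15 genes of cyclic AMP signalling that are in general use in neurons, 0 were at least 2-fold higher in the cortex of mouse 511 and 1, Adcy8, was lower, with a median of 0.15. That list leaves out the cyclase and phosphodiesterase genes counted with the striatal projection neurons. Of these, Adcy5 was 6.40 and 8.0 in the cortex samples, Pde10a 6.14 and 7.87, Pde7b 7.42 and 8.90, and Pde1b 7.82 and 8.42. Pde1b fell short of 2-fold. Adcy5 and Pde1b were named after their values were seen. Of 5 measured genes of adenosine signalling 0 were higher or lower, and the same held for 7 genes of the kynurenine pathway, Ido1 among them. Of 6 paralogs of the 8 genes 0 were higher and 1, Rasd1, was lower by 1.44 on the log2 scale. Of 8 opioid genes 3 were higher, Penk, Pdyn and the kappa receptor gene Oprk1, and 1 was lower, Pnoc, the precursor of nociceptin. Penk was itself chosen on these arrays, and Pdyn is also counted with the direct pathway.

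Genes of dopamine synthesis and of dopamine neurons gave counts in both directions. Of 11 measured genes, 2 (Nr4a2 and Maob) were at least 2-fold higher and 1 (Aldh1a1) at least 2-fold lower in the cortex of mouse 511. Of all probe sets 3.33% were higher and 2.89% lower by that much. Th, the enzyme that makes the precursor of dopamine, was 4.71 and 4.45 in the nucleus samples of mouse 355 and mouse 511, 4.65 and 4.64 in their cortex samples, and 4.08 and 5.62 in their hippocampus samples. The mean level of 5 markers of midbrain dopamine neurons lay between 3.92 and 4.18 on the 6 arrays.

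Markers of other cells that a sample could hold were read beside these results. For their counts between the cortex samples, the shares of all probe sets were again 3.33% higher and 2.89% lower in mouse 511. Of 7 measured markers of cortical and hippocampal excitatory neurons, 2 (Neurod6 and Tbr1) were at least 2-fold higher in the cortex of mouse 511 and 0 lower, and the mean level of the list was 7.21 and 8.46 in the cortex of mouse 355 and mouse 511, 8.06 and 8.28 in the hippocampus and 5.37 and 5.1 in the nucleus. Slc17a7, the vesicular glutamate transporter that defines these neurons, was 9.51 and 9.96 in the cortex samples and 9.83 and 9.79 in those of the hippocampus, against 4.13 and 3.27 in the nucleus, so the nucleus was set apart from both other regions by it. Of 8 measured markers of telencephalic GABAergic neurons 3 (Dlx5, Dlx6 and Npy) were higher and 0 lower, with a mean of 6.91 and 7.66 in the cortex. Striatal projection neurons also arise from progenitors that express Dlx genes. Of 4 measured markers of striatal cholinergic interneurons 0 were higher or lower, and their mean level was 3.9 and 3.92 in the cortex, with Chat, which makes acetylcholine, at 3.96 and 3.27.

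Of 5 markers of the claustrum and endopiriform nucleus, which adjoin the piriform cortex, 2 (Nr4a2 and Oprk1) were higher and 0 lower (3.33% and 2.89% of all probe sets). Their mean was 5.51 and 6.62 in the cortex samples. Nr4a2 was 6.13 and 8.37 in the cortex samples of mouse 355 and mouse 511, and higher in their hippocampus samples, at 7.62 and 9.23. Both genes are also counted in other lists above. Of the 6 markers of the lateral hypothalamus 0 were at least 2-fold higher and 2 (Slc17a6 and Pvalb) lower in the cortex of mouse 511. Slc17a6, the glutamate transporter of hypothalamic and other subcortical neurons, was 10.18 and 9.53 in the nucleus samples. In the cortex it was 8.24 in mouse 355 and 6.24 in mouse 511. Pvalb was 7.91 and 7.70 in the nucleus and 7.95 and 5.74 in the cortex, where the paper places parvalbumin in GABAergic interneurons. Of the others, Cartpt was 7.92 and 7.95 in the cortex samples, and Pmch, Foxb1 and Hcrt were at most 4.19 there. The 6 measured markers of oligodendrocytes had a mean of 8.45 and 7.95 in the cortex samples. No marker is listed at 0, as RMA signals have no zero. The part of these cell types in the difference between the cortex samples was not tested.

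**Figure D4:**
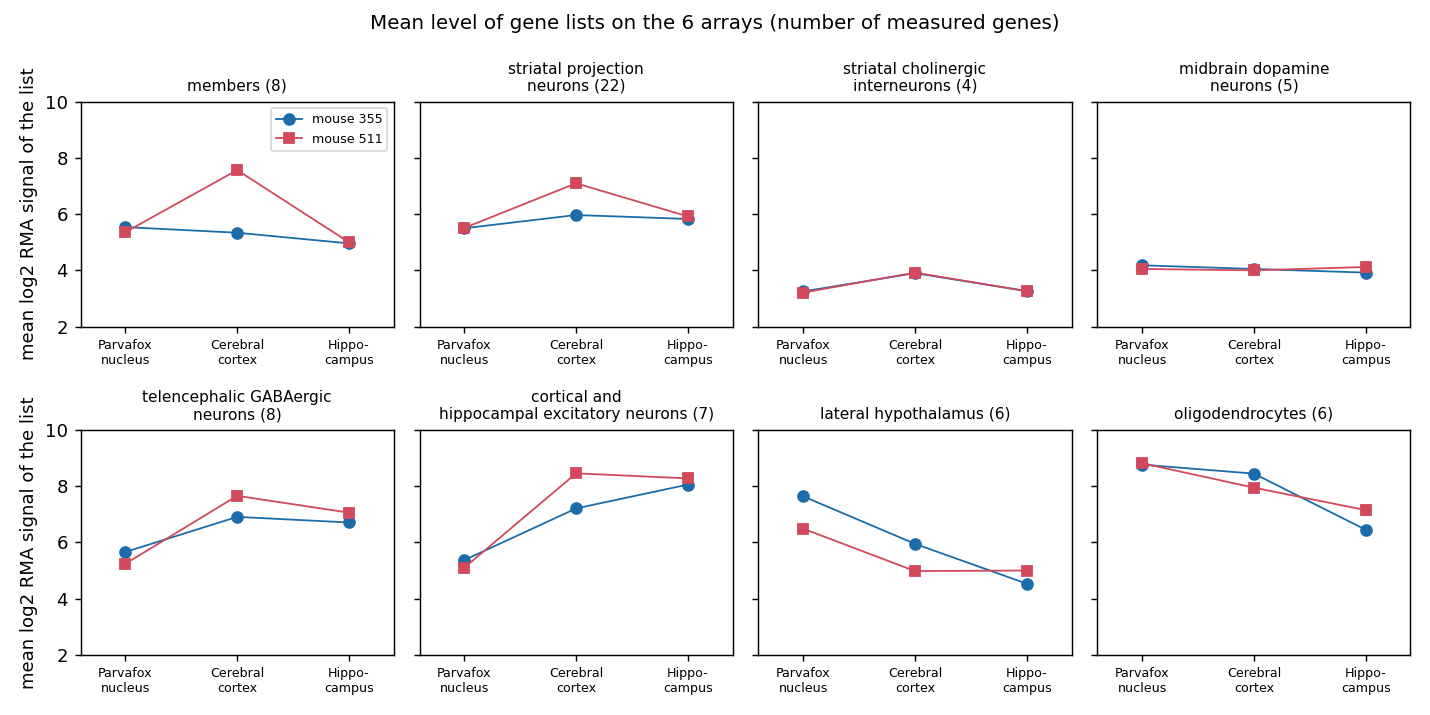
Each panel plots the mean log2 RMA signal of a gene list in the 3 regions, with the number of measured genes in brackets, blue circles for mouse 355 and red squares for mouse 511. The mean of the 8 genes is 7.57 in the cortex of mouse 511 and at most 5.54 elsewhere, the 22 striatal projection neuron genes reach 7.1 there, and the means of the cholinergic and dopamine neuron lists stay between 3.21 and 4.18.

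Likeness to the 8 genes was measured as the Pearson correlation over the 6 arrays with their mean profile, each gene centred on its own mean, among the 803 other genes whose range on the arrays was 2 or more. The 8 genes themselves correlated with the mean of the other 7 with r between 0.751 (Penk) and 0.946 (Slc35d3). With 6 arrays of which 1 stands high, such an r says little more than that the same array is high, and it is given as a description. The 10 genes most like the profile were Oprk1 (r = 0.995), Ccl8, Mir377, Nptx2, Snorc, Mir325, Mill2, Rxrg, Srarp and Rarb (r = 0.946), and 21 of the 803 had an r over 0.9. Oprk1 was 4.37 and 6.60 in the cortex samples, and between 3.70 and 4.51 elsewhere. Nptx2, which encodes a secreted pentraxin of excitatory synapses, was 6.65 in the cortex of mouse 511 and between 4.63 and 5.14 on the other arrays. The microRNA genes Mir377 and Mir325 were at 4.5 and 4.34 in that sample and at most 2.94 elsewhere.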

How the data were processed

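Total RNA of laser-dissected tissue was amplified with the NuGEN Ovation Pico system and hybridised to 6 arrays. The authors deposited log2 signals of 41345 probe sets, normalised by RMA (Affymetrix Expression Console version 1.2.1.20; R 2.14.2, Partek and limma are also named in their methods), so low signals are compressed and array medians made alike. No genome build for the probe sets is given in the sources used here. Scanner files were not used here, and 0 columns stayed unmapped. By the platform annotation 23521 probe sets carry 1 symbol, 1820 several and 16004 none, and 190 are controls. The brightest probe set of a gene over the 6 arrays stood for it, with no filter on low values.

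Regions were compared with limma 3.58.1 in R 4.3.3 on all 6 arrays, with the mouse as a block (2 residual degrees of freedom), eBayes without trend, two-sided, and Benjamini-Hochberg adjustment over all probe sets at 0.05. The script was tested on simulated data. The pairing is by animal; deviations from the region means of the same mouse correlated with r = 0.0794 between nucleus and cortex samples, 0.0587 between nucleus and hippocampus samples and 0.0603 between cortex and hippocampus samples. Values and sequences were handled in Python 3.11.15 (pandas 2.3.3, numpy 2.4.6, matplotlib 3.10.9). Promoter sequences are those of RefSeq on GRCm38.p6.

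The genes and all gene lists were chosen with earlier results of these data known. The rule for genes named with values took the 10 genes (8 measured), up to 6 genes of each list with the widest range on the arrays, the defining markers of the cell types, and the 10 other genes with the highest correlation with the mean profile among those with a range of 2 or more. Rgs9, Pde10a, Pde1b, Actn2 and Adcy5 fall outside it. The number of arrays limits the precision. The alternatives were other normalisations, other sets of probe sets, an intensity trend, no block, other fold thresholds and leaving out each array.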

Additional observations from a re-analysis of the deposited data

Results flagged for a closer look

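The difference of Drd2 between the parvafox nucleus and the cortex had opposite signs in the 2 mice. It was 1.56 on the log2 scale in mouse 355 and -2.31 in mouse 511. For Penk it was 1.42 in mouse 355 and -2.43 in mouse 511. The nucleus samples of the 2 mice differed by less than the cortex samples for both genes. The paper also lists these opposite signs on the arrays. Its quantitative PCR of the same cDNA put Drd2 higher in the nucleus than in the cortex in both mice, but by much less in mouse 511 than in mouse 355. That PCR did not include Penk. Whether the mice differ was not tested, since each mouse has 1 sample per region. No region had enough samples for a search for outlying arrays.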

How the results depend on the processing

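The number of probe sets with an adjusted p under 0.05 in limma depended on the fit. For nucleus against cortex it was 0 and became 6 with no replicate block (mouse left out of the fit), 1 with probe sets above the median alone and 8 with probe sets of 1 symbol alone; for nucleus against hippocampus it was 1 and became 20, 3 and 34 in these fits. It became 0 with each array centred on its median, with an intensity trend, and without any 1 array (lowest 0, highest 0). Fits with fewer probe sets adjust over fewer, and their estimate of the spread also comes from other probe sets. The cause of the change in number was not tested for any of the fits. For cortex against hippocampus it was 0 in all fits run, with 982 higher and 976 lower at an unadjusted p under 0.05. For nucleus against cortex it stayed 0 without any 1 array. The block changed no other call.

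The median difference of the 8 genes over both mice was -0.69 for nucleus against cortex, 0.15 for nucleus against hippocampus and 1.39 for cortex against hippocampus. Without 1 array it is that of 1 mouse, and it ran from -1.82 to -0.16, from 0.18 to 0.43 and from 0.26 to 2.46. The mean over both mice was -2.54 for Drd1 in nucleus against cortex, and ran from -5.08 to 0.01 without 1 array, the upper value being that without the nucleus or the cortex array of mouse 511. For Drd2 in cortex against hippocampus it ran from -0.06 to 3.51, the lower value being that without the cortex or the hippocampus array of mouse 511. Cyclic loess and centring on array medians left the counts of 6 and 0 genes in the cortex comparison of the mice within 1.5 times. With 2 samples per region, differences within the spread of the mice could not be resolved.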
